A study of Mus musculus with 7 samples.

Results

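Retinoid uptake and metabolism in the mouse intestinal epithelium was followed through 9 genes of 13818 genes with a symbol that could be tested. The 9 were chosen by name from the pathway, with earlier results of these data known. The genes were Scarb1, Bcmo1 (the current symbol is Bco1), Isx, Rbp2, Dhrs3, Lrat, Rdh7, Aldh1a1 and Crabp2. The array carried 10 probes for them, 1 for each gene except Scarb1, and all 9 genes passed the filter on dim probes. Scarb1 was represented by the brighter of its probes.

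The study deleted Mob1a and Mob1b, whose products help switch on the Lats kinases in Hippo signalling, in the gut epithelium of male mice aged 8 weeks that had been backcrossed to C57BL/6J. All groups carried floxed alleles of both genes (Mob1a f/f; Mob1b f/f) and received tamoxifen at 80 mg/kg per day on 2 days. The knockout groups also carried Villin-creERT2, a tamoxifen-activated Cre recombinase driven by the Villin promoter, which is active across the intestinal epithelium. They comprised 2 arrays at day 4, 2 at day 7 and 1 at day 10. The 2 control arrays came from mice without Cre, so that an effect of the recombinase itself cannot be told apart from the deletion. The sample labels place the controls at day 7 after tamoxifen and the design text speaks of day 0, so the day of the controls is not settled. The cells were detached from the proximal intestine with EDTA, and the replicates were different mice.

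Dietary provitamin A carotenoids enter the absorptive cells of the upper gut through the scavenger receptor encoded by Scarb1 and are cleaved to retinal by the oxygenase encoded by Bcmo1. Retinal is bound by the cellular retinol-binding protein Rbp2, reduced to retinol, esterified by the acyltransferase Lrat and exported in chylomicrons. A smaller flow is oxidised by retinol and retinal dehydrogenases to retinoic acid, which acts on nuclear receptors and induces the homeobox repressor Isx, known to restrain both Scarb1 and Bcmo1.

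Each array measured 1 sample with 1 dye. A level is the log2 of the background-corrected spot signal minus the 75th percentile of its array, so that 1 unit is a doubling, and levels of different probes cannot be ranked against each other. The share of probes detected well above background ran from 45.2% to 51.3% per array, and none was saturated. All 12 epithelial markers were well above background on all 7 arrays. Mob1b, by limma, differed by -1.41 ± 0.22 (SE) at day 4 (adjusted p = 0.18) and was lower on the day 7 arrays (-1.56 ± 0.22, 0.013) and on the day 10 array (-1.62 ± 0.26, 0.0068). Mob1a, whose signal was near background, differed by -0.25 at day 4 and 0.27 at day 7 and was higher at day 10 (1.62 ± 0.30, adjusted p = 0.010). On the single slide, control shared a row with day 4 and day 7 shared the other with day 10, so a row effect and the late time points cannot be told apart. The day 10 group was a single array, assumed to vary like the other groups, and its differences have no replicate check.

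The promoters of the retinal carrier, the carotenoid oxygenase, its repressor and the retinol dehydrogenase are shown because these genes serve 1 route while their levels, given further on, took different courses. They are RefSeq sequences of GRCm38.p6, from 250 bases before to 50 bases after the start of transcription, written on the gene's own strand. The promoters were Rbp2 at chr9:98490287-98490586 (plus strand), Bcmo1 at chr8:117095615-117095914 (plus strand), Isx at chr8:74872924-74873223 (plus strand) and Rdh7 at chr10:127889198-127889497 (minus strand, the one of its 2 listed promoters nearest to the annotated gene start). Capitals mark matches on either strand to AGGTCA (a core site of nuclear receptors), CATTCC (the TEAD factors that pair with the Hippo effectors Yap and Taz) and TTTATG (the Cdx factors).
Rbp2: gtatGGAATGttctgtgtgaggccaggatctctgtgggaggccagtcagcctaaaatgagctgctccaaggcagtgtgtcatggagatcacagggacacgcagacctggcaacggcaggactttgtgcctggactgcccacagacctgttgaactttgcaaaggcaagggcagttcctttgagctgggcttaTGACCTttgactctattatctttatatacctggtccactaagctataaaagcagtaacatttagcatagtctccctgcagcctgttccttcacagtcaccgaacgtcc
Bcmo1: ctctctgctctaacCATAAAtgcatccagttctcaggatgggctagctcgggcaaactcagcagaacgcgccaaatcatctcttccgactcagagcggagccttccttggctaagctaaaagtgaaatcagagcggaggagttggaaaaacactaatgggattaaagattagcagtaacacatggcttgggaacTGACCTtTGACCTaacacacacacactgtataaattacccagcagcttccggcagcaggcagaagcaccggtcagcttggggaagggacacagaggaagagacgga
Isx: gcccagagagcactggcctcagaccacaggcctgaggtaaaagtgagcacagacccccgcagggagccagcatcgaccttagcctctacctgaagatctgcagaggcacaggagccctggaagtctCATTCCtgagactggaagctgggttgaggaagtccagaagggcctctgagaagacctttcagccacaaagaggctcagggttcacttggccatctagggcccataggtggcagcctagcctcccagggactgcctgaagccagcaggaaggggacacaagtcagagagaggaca
Rdh7: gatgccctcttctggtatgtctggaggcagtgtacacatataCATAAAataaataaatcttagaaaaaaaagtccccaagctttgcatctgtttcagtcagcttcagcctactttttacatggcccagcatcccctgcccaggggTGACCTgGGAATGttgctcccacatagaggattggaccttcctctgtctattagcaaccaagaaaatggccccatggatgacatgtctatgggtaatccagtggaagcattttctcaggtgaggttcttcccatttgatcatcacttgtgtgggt

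Promoters of 7 members were listed. Those of Crabp2 and Scarb1 are not shown. AGGTCA occurred in 3 of the 7, Rbp2, Bcmo1 and Rdh7, against 16.3% of all 32851 promoters of the same length. Bcmo1 held it at -56 and again at -49 with a single base between the copies, both on the opposite strand, while Rbp2 held it at -58 and Rdh7 at -105. CATTCC occurred in 5 of the 7, Rbp2, Isx, Lrat, Aldh1a1 and Rdh7, against 14.7% of all promoters. TTTATG occurred in Bcmo1 and Rdh7, against 11.9%. A repeat of AGGTCA in 1 direction with a spacer of 5 bases, a site of retinoic acid receptors, was in none of the 7 and in 0.00913% of all promoters. CAAAGTCCA, the only sequence searched for the Hnf4 factors, was in none of the 7 and in 0.475% of all. Other forms of such sites, among them repeats of AGGTCA with other spacers like that of Bcmo1, were not counted. No 2 of these matches overlapped. These matches are letters in a window and were not tied to binding in these samples.

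At day 7, 4 of the 9 genes had fallen by limma at an adjusted p under 0.05: Rbp2, Bcmo1, Aldh1a1 and Scarb1. That is 44.4% of the members, while 7.36% of all 24788 features were called in either direction and 4.32% were called lower. Because the members were chosen with earlier results of these data known, the contrast of these shares is a description and no test of the pathway. At day 4 no member was called by limma, and 0.0323% of all features were called. There 1 member (Rbp2) had an unadjusted p under 0.05, as did 6.17% of all features. At day 10 all members but Isx and Crabp2 had fallen, 7 of 9, where 28.3% of features were called and 17.5% were called lower. The median difference over the 9 genes was -0.14 at day 4, -1.39 at day 7 and -2.66 at day 10, and the medians of all features were -0.07, -0.06 and -0.13. At day 10, scaling to the array median or to the probes well above background on all arrays moved the median of all features to -0.33 or 0.08. It moved the share of calls that were higher from 37.9% to 28.5% or 49.2%, while each called member kept its direction. In bulk samples such as these, fewer cells of a type and less RNA per cell cannot be told apart.

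**Figure D1:**
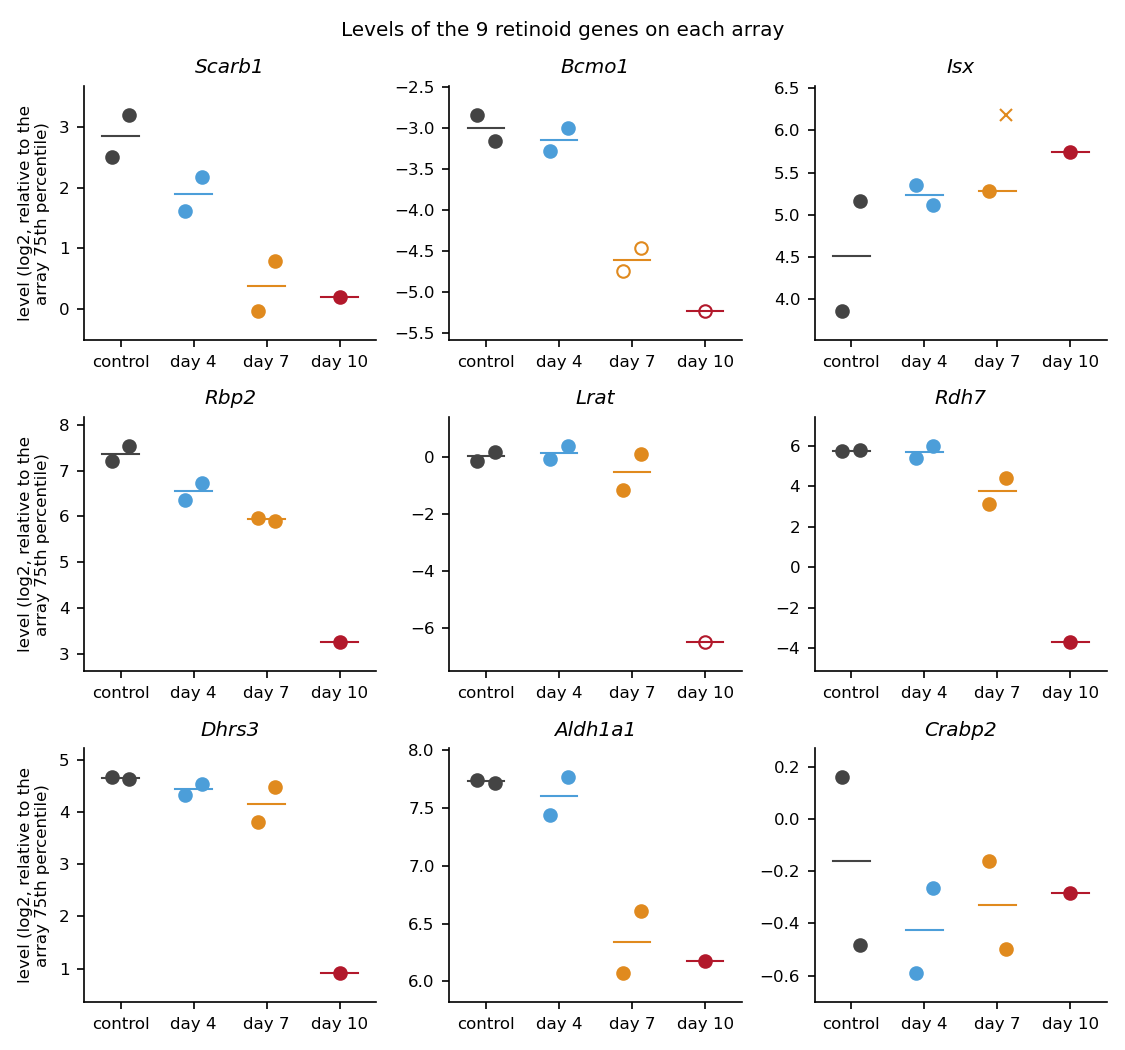
Levels of the 9 genes on each of the 7 arrays (log2 of the processed signal minus the 75th percentile of the array, vertical axis), by group on the horizontal axis, with open symbols for spots not well above background, lines at group means and a different vertical scale in each panel. A cross marks the Isx spot left out as an outlier. Rdh7 and Lrat stood at -3.71 and -6.51 on the day 10 array, while Isx stood between 3.86 and 5.74 and Crabp2 between -0.59 and 0.16.

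Scarb1, the uptake receptor for carotenoids and for lipids of high-density lipoprotein, stood at 2.52 and 3.20 on the control arrays, 1.61 and 2.17 at day 4, -0.04 and 0.80 at day 7 and 0.20 at day 10. Every knockout array lay below both controls, and both day 7 arrays lay below both day 4 arrays. The difference from control was -0.96 ± 0.40 (SE) at day 4 (limma, adjusted p = 0.80). It was -2.48 ± 0.40 at day 7, a 5.56-fold fall (adjusted p = 0.019), and -2.66 ± 0.49 at day 10, a 6.32-fold fall (adjusted p = 0.010). The level at day 10 lay between the 2 day 7 arrays. Its other probe read -0.39 and 0.76 in control, -0.83 and -0.15 at day 4, -2.20 and -1.99 at day 7 and -1.90 at day 10. That probe gave -2.28 at day 7 (0.033) and -2.08 at day 10 (0.032, both adjusted p) in a fit with every probe kept, the same direction as the first. The day 7 call was lost without control replicate 1 (-2.82, adjusted p = 0.052), control replicate 2 (-2.13, 0.071) or day 7 replicate 1 (-2.06, 0.080), and with no filter on dim probes (0.052).

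Bcmo1, the oxygenase that splits beta-carotene, gave a dim signal. Its levels were -2.85 and -3.16 in control, -3.28 and -3.0 at day 4, -4.75 and -4.46 at day 7 and -5.23 at day 10. Control and day 4 overlapped and were well above background, whereas the spots at day 7 and day 10 were not, so later falls are given as bounds. The day 4 difference was -0.14 ± 0.25 (limma, adjusted p = 1.00). At day 7 the fitted difference was -1.60 ± 0.25 (adjusted p = 0.017), at least 2.26-fold lower, and at day 10 it was -2.23 ± 0.30 (adjusted p = 0.0034), at least 2.48-fold lower. Such a bound compares the control mean with the dimmest detected signal of the later arrays, or with the probe's own signal where higher. The bounds hold for the main processing only, and another background correction gave differences smaller than those for Bcmo1. The day 7 call was lost without control replicate 1 (-1.44, adjusted p = 0.10) or day 7 replicate 1 (-1.46, 0.073). With normexp, whose offset shrinks differences of dim probes, the differences were -0.63 at day 7 (0.15) and -0.71 at day 10 (0.087).

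Bcmo1 was also the 1 member called between day 7 and day 4, at -1.46 ± 0.25 (limma, adjusted p = 0.042) and at least 2.05-fold lower, where 2.81% of all features were called and 1.52% were called lower (45.8% of the calls were higher, or 35.1% with median scaling). The other members ranged from -1.94 for Rdh7 (adjusted p = 0.091) to 0.10 for Crabp2 (adjusted p = 0.90), with a median of -0.68 over the 9. Rbp2 differed by -0.60 (0.28), Aldh1a1 by -1.26 (0.074) and Scarb1 by -1.51 (0.12), each with both day 7 arrays below both day 4 arrays. The Bcmo1 call was lost without any 1 of control replicate 1 or 2 (0.069 each), day 4 replicate 1 (0.16) or 2 (0.25), or day 7 replicate 1 (0.15) or 2 (0.052). Those fits gave differences from -1.61 to -1.32. It was also lost under 5 other settings of scaling, background, filter, floor or groups, with adjusted p up to 0.36.

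Isx, the repressor of Scarb1 and Bcmo1, was not called at any time point. It read 3.86 and 5.16 in control, 5.35 and 5.12 at day 4, 5.28 on day 7 replicate 1 and 5.74 at day 10. The day 4 arrays overlapped the span of the controls, while the day 7 and day 10 arrays lay above both controls. On day 7 replicate 2 the spot was marked as an outlier by the scanner software and left out, so that day 7 rests on 1 array. The differences were 0.72 ± 0.46 at day 4 (limma, adjusted p = 0.93), 0.77 ± 0.57 at day 7 (0.48) and 1.23 ± 0.57 at day 10 (0.17). With the marked spot kept, the day 7 difference was 1.22 (0.22). Control replicate 1 set the sizes: without control replicate 2, which leaves it as the lone control, the day 10 difference was 1.88 and was called (0.032), the day 7 one was 1.42 (0.14) and the day 4 one was 1.37. Without control replicate 1 they were 0.59, 0.12 and 0.08.

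Rbp2, the carrier of retinal and retinol in absorptive cells, read 7.20 and 7.53 in control, 6.36 and 6.72 at day 4, 5.97 and 5.91 at day 7 and 3.26 at day 10. No 2 groups overlapped, and each later group lay below the earlier one. The day 4 difference of -0.82 ± 0.24 missed the threshold (limma, adjusted p = 0.58). By day 7 Rbp2 had fallen 2.68-fold (-1.42 ± 0.24, adjusted p = 0.023), and by day 10 it had fallen 17.2-fold (-4.11 ± 0.30, adjusted p = 0.00046). The day 7 call was lost without control replicate 1 (0.079) or 2 (0.098), day 4 replicate 1 or 2 (0.051 each), or day 7 replicate 1 (0.083) or 2 (0.059), at differences from -1.59 to -1.26. It was also lost in a fit on the control and day 7 arrays alone (0.051) and with no filter on dim probes (0.060).

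Dhrs3, which reduces retinal to retinol, kept most of its level until the last time point. It read 4.67 and 4.64 in control, 4.32 and 4.55 at day 4, 3.82 and 4.48 at day 7 and 0.91 at day 10. All knockout arrays lay below both controls, but day 4 and day 7 overlapped. The differences were -0.22 ± 0.28 at day 4 (limma, adjusted p = 0.98) and -0.50 ± 0.28 at day 7 (0.35). At day 10 Dhrs3 had fallen 13.3-fold (-3.74 ± 0.34, adjusted p = 0.00090).

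Lrat, which esterifies retinol for export and storage, read -0.12 and 0.16 in control, -0.07 and 0.38 at day 4 and -1.17 and 0.11 at day 7. These 3 groups overlapped, and the low value at day 7 came from replicate 1. The differences were 0.13 ± 0.44 at day 4 (limma, adjusted p = 1.00) and -0.55 ± 0.44 at day 7 (0.51), the latter 0.09 without day 7 replicate 1. On the day 10 array the spot, at -6.51, was not well above background. There Lrat had fallen at least 20.2-fold (fitted difference -6.53 ± 0.54, adjusted p = 0.00067). With normexp the difference was -2.95 (0.0047), below that bound.

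Rdh7, a short-chain dehydrogenase that in the mouse oxidises retinol and some hydroxysteroids, read 5.75 and 5.78 in control, 5.41 and 5.98 at day 4, 3.10 and 4.40 at day 7 and -3.71 at day 10. Day 4 spanned the controls, and both day 7 arrays lay below all earlier arrays. The day 7 difference was -2.01 ± 0.45, just outside the threshold (limma, adjusted p = 0.052), after -0.07 ± 0.45 at day 4. At day 10 Rdh7 had fallen 712-fold (-9.48 ± 0.55, adjusted p = 0.00026), the largest fitted difference among the 9 genes. The day 10 spot, though well above background, was dim, and with normexp the difference was -6.96 (0.00052). The day 7 difference was called without day 7 replicate 2 (-2.66, 0.018), with median scaling (0.027), over probes well above background on all arrays (0.025) and with a floor on dim signals (0.034). It was smaller without day 7 replicate 1 (-1.36, 0.11) and with normexp background correction (-1.42, 0.18).

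Rdh7 belongs to a cluster of near copies, and which of them a probe measures is uncertain. The array's probes for 4 relatives did not show the same pattern. At day 10 the differences were -0.91 ± 0.43 for Rdh1 (limma, adjusted p = 0.17), -0.07 ± 0.33 for Rdh9 (0.89), 1.94 ± 0.60 for Rdh16 (0.057) and 0.62 ± 0.72 for Rdh19 (0.56). At day 7 they were -0.40 (0.55), -0.45 (0.39), -1.33 (0.18) and -1.14 (0.32).

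Aldh1a1, a cytosolic retinal dehydrogenase that makes retinoic acid, read 7.74 and 7.72 in control, 7.44 and 7.77 at day 4, 6.07 and 6.61 at day 7 and 6.18 at day 10. Day 4 overlapped control, and the day 10 value lay between the 2 day 7 arrays. After -0.13 ± 0.27 at day 4 (limma, adjusted p = 1.00), Aldh1a1 had fallen 2.62-fold at day 7 (-1.39 ± 0.27, adjusted p = 0.034) and 2.94-fold at day 10 (-1.55 ± 0.33, adjusted p = 0.017). Like Scarb1, it had no lower level at day 10 than the range of day 7. The day 7 call was lost without control replicate 1 (0.15) or 2 (0.11), day 4 replicate 1 or 2 (0.072 each) or day 7 replicate 1 (0.11), and the day 10 call without control replicate 1 (0.060) or 2 (0.052). Quantile normalization also ended both (0.056 and 0.055), and the day 7 call was lost in a fit on its own groups (0.072) and with no filter on dim probes (0.084).

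Crabp2, which passes retinoic acid to its nuclear receptors, read 0.16 and -0.48 in control, -0.59 and -0.26 at day 4, -0.16 and -0.50 at day 7 and -0.28 at day 10. All groups overlapped the span of the controls. The differences were -0.27 ± 0.30 at day 4 (limma, adjusted p = 0.97), -0.17 ± 0.30 at day 7 (0.78) and -0.12 ± 0.37 at day 10 (0.83).

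**Figure D2:**
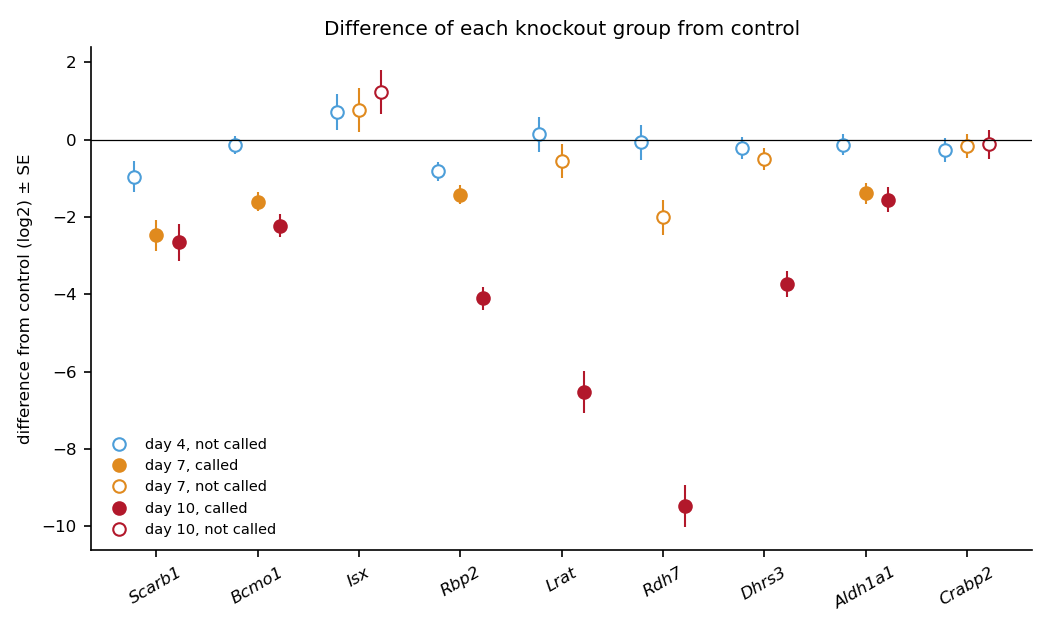
Difference of each knockout group from control for the 9 genes (log2, vertical axis) with its standard error from limma, filled where the adjusted p was under 0.05. At day 4 none is filled, at day 7 Rbp2, Bcmo1, Aldh1a1 and Scarb1 are filled below 0, and at day 10 all but Isx and Crabp2 are.

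The order of levels over time was not the same for all members, and day 10 was not tested against day 7. Scarb1 and Aldh1a1 read at day 10 within their range at day 7, Rbp2 read lower at each later time, and Dhrs3, Lrat and Rdh7 were called at day 10 and not at day 7. The day 10 sizes ran from 2.94-fold for Aldh1a1 to 712-fold for Rdh7 among the 5 members that had fallen and were well above background there. Of the 8 members measured on both day 7 arrays, 6 read lower on replicate 1, a share not counted over all features. Across features these 2 arrays correlated at 0.977. Without day 7 replicate 1 no member was called at day 7. Without control replicate 1 none was called either, without control replicate 2 only Bcmo1 was, and without either day 4 array Bcmo1 and Scarb1 were. Without day 7 replicate 2 the count was 4, with Rdh7 in and Rbp2 out.

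Likeness of pattern was measured as the root mean square difference of levels centred on their mean over the 7 arrays, and is a description over arrays that share groups. The gene closest to Rbp2 was C1qtnf12 (0.153), followed by Ero1b (0.207) and Tm4sf5 (0.223). Rdh7 was closest to the brush-border trehalase Treh (0.311) and to the sugar transporters Slc5a11 (0.367) and Slc5a4a (0.371). Lrat was closest to the ceramidase Asah2 (0.174), the amino acid transporter Slc6a20a (0.256) and the fatty acid transporter Slc27a2 (0.269). Dhrs3 was closest to Prr15 (0.113), Cldn15 (0.131) and Gimap8 (0.153), Aldh1a1 to Gbe1 (0.0965), Olfr39 (0.110) and Macrod1 (0.117), and Scarb1 to Gp6 (0.269), Cym (0.287) and C8g (0.291). Bcmo1 was closest to Fam117a (0.0759), Cacna2d1 (0.132) and Ccdc142 (0.141), Crabp2 to Lypla2 (0.0759), 1700029P11Rik (0.0762) and N4bp2l2 (0.0818), and Isx, over 6 arrays, to Rsl1 (0.110), Srrd (0.128) and Zbtb12 (0.128). Among the members themselves, Bcmo1 and Aldh1a1 were 0.251 apart, Rbp2 and Dhrs3 0.418 and Bcmo1 and Scarb1 0.488.

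The other genes of the pathway came from 6 lists of known retinoid genes, of which 51 could be tested. At day 4 none was called in any list by limma, and 6 had an unadjusted p under 0.05. At day 7, 15 were lower and 1 was higher, with a median of -0.61, and at day 10, 25 were lower and 10 higher, with a median of -0.91. The count of lower genes at day 7 was 4 without control replicate 1, 7 without control replicate 2 and 8 without day 7 replicate 1. Each array of control, day 4 and day 7 was left out in turn. Of the 18 calls at day 7 among these genes and the transcription factors described last, 4 were kept throughout: Adh4, Aldh1a7, Rbp7 and Abca1. At day 10, 32 of 41 calls were kept, but the lone day 10 array was in every such fit, so its calls could not be checked across samples. Those not kept were Rdh8, Adh5, Akr1b10, Cyp26b1, Cyp2s1, Fabp5, Rarres2, Gata6 and Nr1i2.

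The binding and transport list had 5 of 9 tested genes lower at day 7 (median -1.58) and 7 lower with 1 higher at day 10 (median -3.05). Rbp7, a cellular retinol-binding protein like Rbp2, read 4.28 and 3.97 in control, 2.27 and 1.71 at day 4, -0.92 and -0.65 at day 7 and -3.66 at day 10. No 2 groups overlapped, each later one being lower, and the difference was -4.91 ± 0.28 at day 7 (limma, adjusted p = 0.0014) and -7.79 ± 0.34 at day 10 (0.00022). Abca1, a sterol exporter, read 1.71 and 1.62 in control, 1.35 and 1.70 at day 4, -3.45 and -3.0 at day 7 and -1.39 at day 10, so that it was lowest at day 7 (-4.89 ± 0.26, 0.0013). Ttr (-3.48), Stra6l (-2.33) and Fabp5 (-1.58), carriers or receptors of retinoids and lipids, were also lower at day 7. At day 10 Rbp4, the plasma retinol carrier (-5.56 ± 0.47), and the lipid receptor Cd36 (-5.18 ± 0.47) were lower as well, and Ttr was at least 20.9-fold lower. Under other settings the Ttr difference at day 10 was as small as -2.61, below that bound. Rbp3 was not called (-0.05 at day 7 and 0.49 at day 10).

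Among the retinol and retinal oxidoreductases, 7 of 20 were lower and 1 was higher at day 7 (median -0.86), and 9 were lower and 4 higher at day 10 (median -0.84). The alcohol dehydrogenase Adh4 read 4.49 and 4.66 in control, 4.43 and 4.44 at day 4, 2.24 and 2.70 at day 7 and -0.57 at day 10 (day 7 difference -2.10 ± 0.24, limma, adjusted p = 0.0076). Adh1 (-2.24), Rdh5 (-1.55), Akr1b10 (-1.37), Dhrs4 (-1.36) and Dhrs7 (-1.06) were also lower at day 7, and so was Adh7 (-1.82), which was not well above background then and allows no bound above 1. All of them were lower at day 10 as well, with Adh5 (-1.27) and Rdh12 (-2.08) joining. The day 10 difference of Adh7 was as small as -0.08 under other settings, some of which lost its call. Those of Adh5 and Akr1b10 were not called in every fit without 1 array of control, day 4 or day 7. Akr1b8, an aldo-keto reductase that reduces retinal, rose from 2.55 and 3.07 in control to 5.59 and 5.11 at day 7 (2.54 ± 0.47, 0.029) and 8.80 at day 10. Rdh10, which starts retinoic acid synthesis, was called higher at day 10 (3.59 ± 0.29, adjusted p = 0.00063), at 4.70 against 1.03 and 1.19 in control, as were Rdh8 (1.79) and Dhrs9, at least 75.6-fold. For Rdh8 the difference was as small as 0.54 under other settings, some of which lost its call. That of Dhrs9 was as small as 3.88 under other settings, below its bound. Rdh14, Rdh11 and Rdh9, the brightest of those not called, differed by -0.16, 0.10 and -0.45 at day 7.

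Aldh1a7, a near copy of Aldh1a1 whose probe may share targets with it, read 4.31 and 4.65 in control, 3.65 and 3.85 at day 4, 2.09 and 2.11 at day 7 and 1.19 at day 10. It was lower at day 7 (-2.38 ± 0.23, limma, adjusted p = 0.0048) and day 10 (-3.29 ± 0.28). It was the 1 gene called at day 7 among the 5 tested genes listed as retinal dehydrogenases and retinoic acid hydroxylases. Whether its product acts on retinal was not examined here. At day 10 Cyp2s1 was also lower (-1.33), while Aldh1a3, a retinal dehydrogenase, was higher (4.22), as was the retinoic acid hydroxylase Cyp26b1 (1.61, adjusted p = 0.040). The Cyp26b1 difference was as small as 0.38 under other settings, some of which lost its call. Aldh8a1 was not called (-0.29 at day 7 and -0.65 at day 10). Among 5 tested retinyl ester and carotenoid enzymes, Bco2, the other carotenoid oxygenase, was lower at day 7 (-1.91 ± 0.25, adjusted p = 0.011) and day 10 (-6.73 ± 0.30), and Dgat1 (-2.49), Lipe (-2.08) and Pnliprp2 (-1.86) were lower at day 10. Pnpla2 was not called (-0.14 and 0.21).

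**Figure D3:**
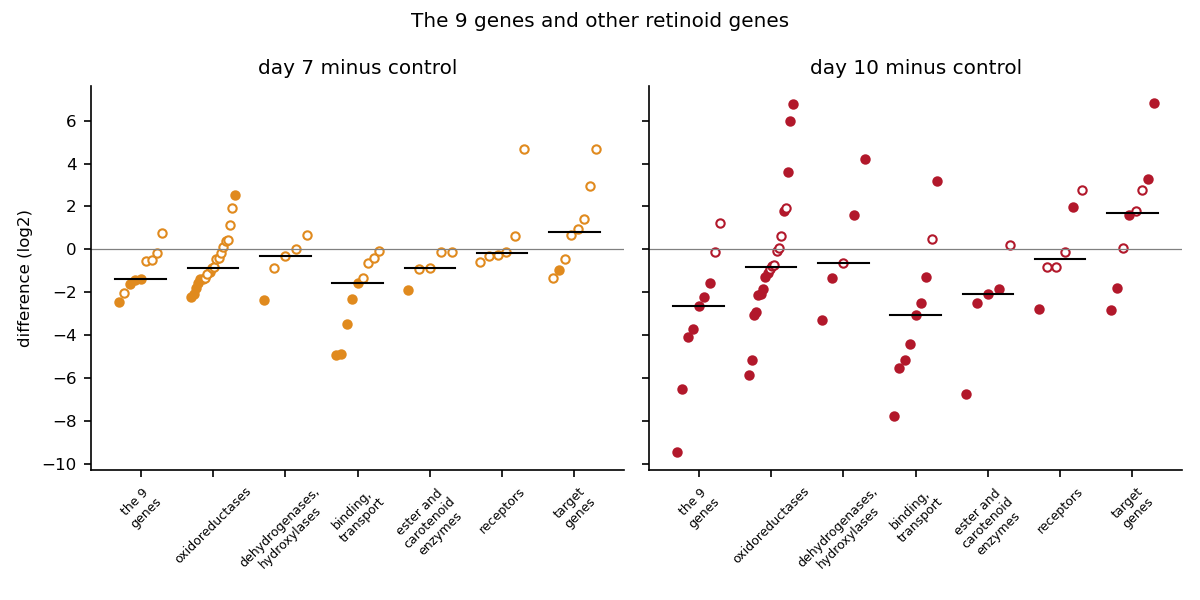
Differences from control at day 7 (left) and day 10 (right) on a log2 vertical axis for the 9 genes and the other retinoid lists, 1 point per gene, filled at a limma adjusted p under 0.05, with a line at the median of each list. The binding and transport genes have medians of -1.58 and -3.05, and the retinoic acid targets have medians of 0.82 and 1.70.

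The receptors and the target genes of retinoic acid differed from control in both directions. None of 6 receptors was called at day 7 by limma (3 had an unadjusted p under 0.05, among them Rarb at 4.66 ± 1.18 with an adjusted p of 0.074), with Rxrb at -0.25, Rara at -0.33 and Rxrg at -0.11. At day 10 Rarg was higher (1.96 ± 0.30, adjusted p = 0.0052) and Rxra, the partner of many nuclear receptors, was lower (-2.77 ± 0.27, 0.0011). Of 8 tested retinoic acid targets, 1 was lower at day 7 (Cdx1, -0.95, adjusted p = 0.045), a call lost without any 1 of the arrays of control, day 4 or day 7 (adjusted p from 0.080 to 0.21). At day 10, 3 were higher, among them Tgm2 (3.29) and Cyp26b1, and 2 were lower, Cdx1 (-2.83) and Rarres2 (at least 1.44-fold). The median of the 8 was 0.82 at day 7 and 1.70 at day 10, against -0.06 and -0.13 over all features. Of these 8, only 6 and 4 were well above background on control replicates 1 and 2, 5 and 6 on the day 7 arrays and 7 at day 10. These medians therefore rest in part on dim control signals. On control replicate 2, 5 of the 6 receptors were well above background. Isx, itself a retinoic acid target in the intestine, was not called, and Hic1 (0.97 at day 7) and Ret (-1.34) were not either.

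Of 16 transcription factors known to act upstream of absorption genes, 3 were lower at day 7, Cdx1, Pdx1 (-1.42, limma, adjusted p = 0.026) and the sterol receptor Nr1h3 (-1.43, 0.022). No more than 1 was called when any 1 array of control, day 4 or day 7 was left out. At day 10, 7 were lower, these 3 and Ppara (-4.81), Hnf4g (-3.05), Nr1i2 (-1.32) and Gata6 (-1.18). Hnf4a (0.18 at day 7 and -0.31 at day 10), Cdx2 (0.48 and -0.10) and Klf4 (0.07 and -0.56) were not called.

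Markers of several epithelial cell types were also lower at day 7 and day 10. Of 18 villus enterocyte markers, all well above background through day 7, none was called by limma at day 4 (0 with an unadjusted p under 0.05), 3 were lower at day 7 (median -0.34) and 17 were lower at day 10 (median -3.03). Their summed signal, in units of each array's 75th percentile, was 4165 to 4502 in control, 3566 to 4273 at day 4, 3209 to 3890 at day 7 and 672 at day 10. At day 7 the brightest of them, Fabp2, Apoa1 and Ada, differed by -0.58, 0.13 and 0.09, and at day 10 by -3.10, -2.27 and -1.78. The count at day 7 was 0 without any 1 of control, day 4 or day 7 replicate 1, or control or day 4 replicate 2, and 4 without day 7 replicate 2. The 12 epithelial markers summed to 2438 to 2589 in control, 2391 to 2463 at day 4, 2802 to 2909 at day 7 and 2780 at day 10, with 3 higher and 1 lower at day 10.

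Of 9 proximal small intestine markers, 3 were lower at day 7 (median -0.82) and 6 at day 10 (median -1.93), with sums of 226 to 241 in control, 208 to 222 at day 4, 181 to 206 at day 7 and 79.4 at day 10. The 3 called lower at day 7 were the duodenal factor Pdx1, the iron reductase Cybrd1 (-4.57 ± 0.51, limma, adjusted p = 0.0069) and Hamp2 (at least 1.78-fold). Not all proximal markers moved that way: 6 of the 9 differed below 0 at day 7 and 3 above 0, up to 0.94. Of 8 enteroendocrine markers, 5 were lower at day 7 (median -1.20) and all 8 at day 10 (median -4.84), with sums of 184 to 224, 154 to 164, 78.5 to 102 and 7.64. Of 6 Paneth cell markers, 2 and then 5 were lower (medians of -1.01 and -3.50), and of 8 crypt stem cell markers, 3 and then 6 (medians of -1.11 and -2.20). Without any 1 of the arrays of control or day 4, or day 7 replicate 1, the day 7 counts were 2 for proximal, 1 or 2 for enteroendocrine and Paneth cell and 1 for crypt stem cell markers. None of 13 proliferation genes was called by limma (0 with an unadjusted p under 0.05 in any comparison), and their sums were 171 to 178 in control, 266 and 154 on day 4 replicates 1 and 2, 250 and 173 on day 7 replicates 1 and 2 and 171 at day 10.

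Of 8 T cell and intraepithelial lymphocyte markers, all well above background on every array, 1 was higher at day 7 and 7 were lower at day 10. Their summed signal was 192 to 221 in control, 190 to 213 at day 4, 287 to 342 at day 7 and 10.8 at day 10. Such a sum weighs the brightest probes most. The median difference of these 8 was 0.04 at day 7, with 5 above 0 and 3 below, and -4.07 at day 10. Of 9 myeloid markers, 1 was higher at day 7 and 6 were higher at day 10, with sums of 42.8 to 45.3, 29.4 to 37.8, 52.8 to 61.3 and 267. The myeloid median at day 7 was 0.17, with 5 above 0 and 4 below. Between 6 and 9 of these 9 myeloid markers were well above background on an array. Goblet cell markers were lower at day 7 in 6 of 8 (median -2.24) and at day 10 in all 8. Over other settings of the processing the day 7 count ran from 4 to 8, and it also changed when 1 array was left out. Fibroblast markers were lower in 1 of 5 at day 7 and 2 of 5 at day 10 (median -1.51). Of 3 tested stomach markers, Tff1 was higher at day 7 (at least 9.43-fold) and day 10 (at least 32.4-fold) and Pgc was lower at day 10 (-0.90), and of 3 tested pancreas markers 1 was lower at day 10. The part of these marker shifts in the values of the retinoid genes was not tested.

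**Figure D4:**
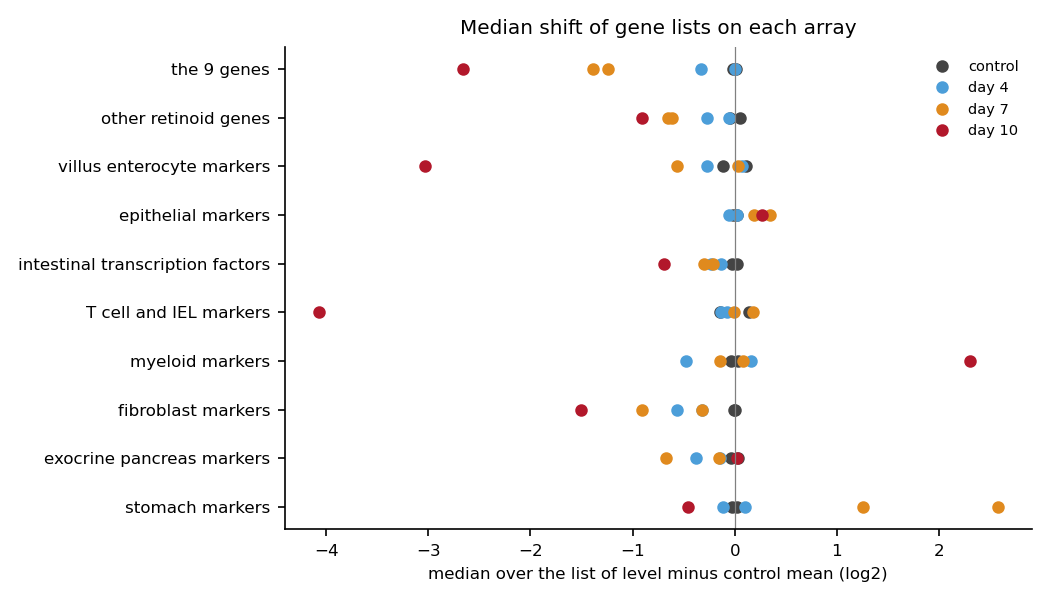
Median over each gene list of the level minus the control mean (log2, horizontal axis), 1 point per array, for the 9 genes, the other retinoid genes and lists of cell type markers (IEL, intraepithelial lymphocyte). On the day 10 array the 9 genes (-2.66), the villus enterocyte markers (-3.03) and the T cell markers (-4.07) lie low, and the myeloid markers (2.30) lie high.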

How the data were processed

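Gene expression was measured on 7 1-colour arrays, grouped by the sample labels. The deposited intensity values came from Agilent Feature Extraction 11.5.1.1 (design 028005, build label mm9), per the file headers. The processed signal is background-subtracted, with no scaling between arrays. The deposited value table, used as an alternative, matched it to within 0.1% in 100% of single-spot probes.

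Control spots and spots marked as outliers were left out, and the log2 signals of a probe's spots were averaged. The array's 75th percentile over these probe values was then subtracted. The files hold accessions and no gene names, so members were found through a RefSeq table (GRCm38.p6). In all, 27509 of 55681 probes had 1 symbol, 0 had several and 28172 had none. Probes had to be well above background on at least 2 arrays, the brightest probe stood for a gene, and unnamed probes were kept, which left 24788 features, 28 of them with a missing array. limma 3.58.1 in R 4.3.3 (with data.table, version 1.17.8) fitted a mean for each group in 1 model of all arrays (3 residual and 3.15 prior degrees of freedom), with 2-sided tests adjusted by Benjamini-Hochberg across the features and a threshold of 0.05. The number of arrays limits the precision. The fit was tested on simulated data.

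The members and gene lists were chosen with earlier results of these data known. All members are named, as are the called genes of the retinoid and transcription factor lists, except 2 that are not reported here, and up to 3 of the brightest others of a list. Alternatives were other scalings, background correction (normexp with an offset of 50, on median spot signals because mean signals were not used here), filters, a floor, probe summaries, groups in the fit, a replicate block, each replicate left out in turn and, added after seeing the data, outlier spots kept. Deviations of same-numbered arrays correlated at 0.251 between day 4 and day 7 but at 0.008 and 0.086 between control and these, so the numbers were not taken as pairs.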

Additional observations from a re-analysis of the deposited data

Results flagged for a closer look

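Bcmo1 differed between the effects of 2 time points: its difference from control was -0.14 at day 4 and -1.60 at day 7, and the day 7 minus day 4 difference of -1.46 passed the limma test (adjusted p = 0.042). The 2 effects share the control arrays, which cancel in that difference. Neither day 7 spot was well above background, and the call was lost without any 1 array of control, day 4 or day 7.

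The Isx spot on day 7 replicate 2, left out because the scanner software marked it as an outlier, carried a level of 6.18, above both control arrays (3.86 and 5.16).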

How the results depend on the processing

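Of 670 member values under 19 alternatives, 598 kept their direction and their side of the threshold, most of them values not called or day 10 values. A call was lost in 39, gained in 12, and the direction turned in 21. None of the 12 called values changed direction. No member was called at day 4 under any alternative. The calls at day 7 and between day 7 and day 4 rest on few arrays and on the shared estimate of spread, and dim signals limit Bcmo1 throughout and Lrat at day 10. The cause of the changes was not tested, except that fits on the compared groups alone, or without an array, have fewer degrees of freedom by construction.

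The replicate block, over numbers not taken as pairs, gave 2, 1875, 730 and 6504 called features at day 4, day 7, day 7 minus day 4 and day 10, against 8, 1825, 697 and 7002. Under it Rdh7 was called at day 7 (0.031) and Scarb1 between day 7 and day 4 (0.036), and Bcmo1 was not called there (0.055).

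At day 4 the 8 calls became 4 with scaling to probes detected on all arrays, 27 with median scaling, 3 with normexp, 2 without a filter, 24 over probes detected on all arrays, 4 with the mean of a gene's probes, 3 in a fit on those groups and 20 with a floor. At day 7, normexp, no filter and a fit on those groups gave 1074, 967 and 1038 features, and no filter and that fit gave 1 and 2 members. Between day 7 and day 4 the same settings gave 268, 123 and 415 features. There the 1 called member became 0 under these and with scaling to detected probes or a floor, 3 with median scaling and 2 over probes detected on all arrays. Without 1 replicate at a time, features called ranged from 1 to 8 at day 4, 536 to 2102 at day 7, 0 to 1104 between them and 4623 to 7556 at day 10, and members from 0 to 4 at day 7, 0 to 1 between them and 6 to 7 at day 10.

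Among values not called, normexp turned day 4 Lrat (-0.11) and Rdh7 (0.47) and, between day 7 and day 4, Isx (-0.14) and Crabp2 (-0.015). Quantile normalization turned day 4 Rdh7 (0.041), and scaling to detected probes turned Isx between day 7 and day 4 (-0.023) and Crabp2 at day 10 (0.084). The floor turned Adh7, a called gene, at day 7 (0.023) and between day 7 and day 4 (0.064). Leaving out 1 replicate turned the sign of some uncalled values, with ranges over the replicates left out for Bcmo1 at day 4 (-0.30 to 0.018), Lrat at day 4 (-0.087 to 0.36), Aldh1a1 at day 4 (-0.30 to 0.034), Rdh7 at day 4 (-0.35 to 0.21), Crabp2 at day 4 (-0.59 to 0.054), Lrat at day 7 (-1.19 to 0.092), Crabp2 at day 7 (-0.49 to 0.15), Isx for day 7 minus day 4 (-0.068 to 0.17), Dhrs3 for day 7 minus day 4 (-0.62 to 0.042), Crabp2 for day 7 minus day 4 (-0.071 to 0.27) and Crabp2 at day 10 (-0.44 to 0.20).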
